A study of Oryza sativa with 16 samples.

Results

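The response of rice roots to a short supply of water was described here in N22 (Nagina 22), a drought tolerant upland variety, at the high nitrogen level. The library of N22 roots under high nitrogen and low water (N+W-) was set against the library of N22 roots under high nitrogen and ample water (N+W+), 2 of the 16 libraries of the study. The 16 libraries came from 2 genotypes (N22 and the drought sensitive lowland variety IR64), 2 tissues (root and shoot) and 4 treatments, with 1 library for each combination. Of 37849 genes listed, the 22417 with at least 1 CPM (reads per 1000000 exon reads, after scaling) in 1 of the 2 libraries were compared.

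The labels give the N+W- seedlings an age of 21 days with 10 mL of water a day, the stress running over days 15 to 21, and the N+W+ seedlings an age of 15 days with 100 mL a day. The study's methods describe a single age for all treatments. If the ages in the labels hold, water supply and age cannot be told apart in this comparison. The labels give the NH4NO3 of N+ as 0.08 mM and that of N- as 0.4 mM, which goes against the names of the 2 levels, while the descriptions of the N-W+ samples give 0.04 mM, so the nitrogen levels are used here by name only. Both libraries came from the same variety and both were at N+. RNA of the biological replicates was pooled in equal amounts before each library was made, so the spread between plants was not measured. Ratios between the 2 libraries therefore have no replicate check, and every interval below is an exact binomial 95% interval of the reads that covers counting error only.

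The N+W- library held 9643294 exon reads and the N+W+ library 10370030, within the 8272195 to 13675454 reads of the 8 root libraries. A read was found for 28259 genes in N+W- and 28124 in N+W+, and 3 reads were worth 0.311 and 0.289 CPM. All 11 genes on a list of root markers (RCc3, the silicon transporters, SHR, SCR and root hair factors) passed the filter, and none differed by more than 4-fold (3460 CPM summed in N+W-, against 3950 in N+W+). Markers of green shoot tissue summed to 143 CPM in N+W- and 155 in N+W+ (36 genes, with 3 and 1 of them at 0 reads). Those of the shoot meristem summed to 16.6 and 14.0 CPM (6 genes, 1 and 1 at 0 reads), and those of seed remnants to 18.7 and 43.7 CPM (46 genes, 35 and 34 at 0 reads).

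Drying cells accumulate abscisic acid (ABA), which acts through receptors of the PYL family, PP2C phosphatases and SnRK2 kinases (SAPK in rice) on genes that carry ABA responsive elements. Late embryogenesis abundant (LEA) proteins and the dehydrins among them are hydrophilic proteins that are best known from drying seeds and are induced by ABA in vegetative tissue. Grasses take up iron mainly by secreting mugineic acid phytosiderophores, made from nicotianamine, and by importing their iron complexes through YSL transporters, and these genes are induced when iron is short. Both sets stood out in the 2 libraries, in opposite directions.

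A gene was called when its log2 ratio of N+W- over N+W+ went beyond 2 either way. By this rule 569 of 22417 genes were called (2.54%), 273 higher (1.22%) and 296 lower (1.32%) in N+W-. The ratios were scaled by the trimmed mean of M-values (TMM), and scaling by library totals instead shifted log2 ratios up by 0.17, less for genes with few reads, so that 346 of 570 calls (60.7%) were higher, against 48.0% with TMM. The middle of the distribution was narrow, with the 5th percentile at -1.10 and the 95th at 0.98. The median called gene had 23 reads in its higher library, and for 162 genes (0.723%), 75 of them higher (0.335%) and 87 lower (0.388%), the whole interval lay beyond log2 2.

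**Figure D1:**
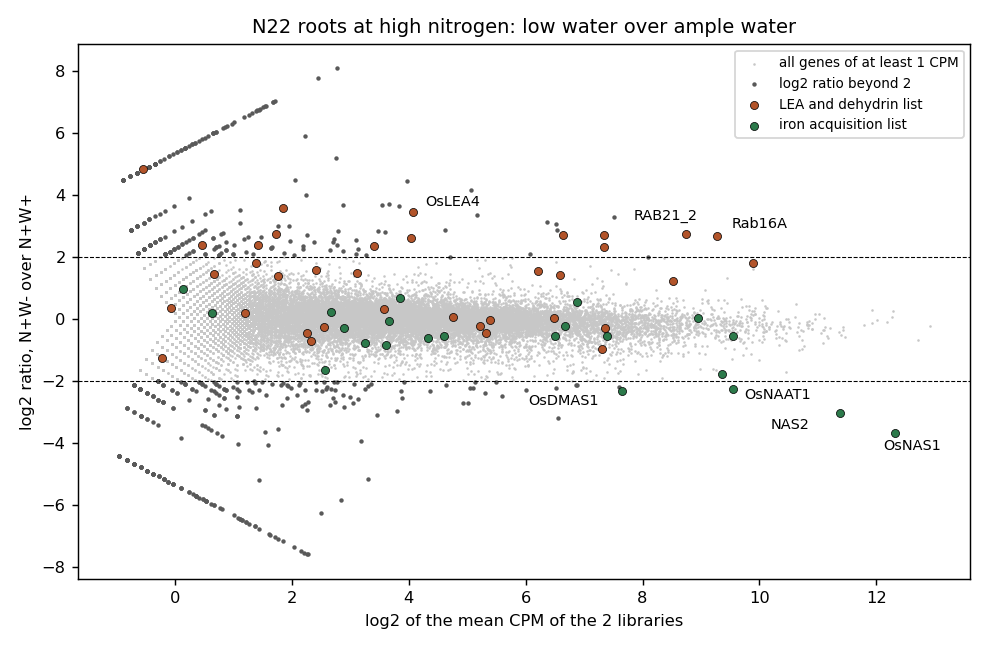
Log2 ratio of N+W- over N+W+ (y axis) against the log2 of the mean CPM of the 2 libraries (x axis) for the 22417 genes, with dashed lines at log2 ratios of 2 and -2, dark points beyond them, and the LEA and dehydrin list and the iron acquisition list coloured. Rab16A and RAB21_2 lie above the upper line at high levels, while OsNAS1 and NAS2 lie below the lower line at the highest levels of all called genes, and the straight rays of points at low levels are genes with 0 to a few reads in 1 library.

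Genes of the LEA and dehydrin list were mostly higher in N+W-. Of 39 genes on the list, 36 were measured, 13 were called higher (the background was 1.22%) and none lower. The median log2 ratio of the 36 was 1.48, against 0 over all genes compared, and 22 of them were above log2 1 and 1 was below -1, where 4.79% and 5.96% of all genes lay. Every called member had 24 to 10909 reads in N+W- except OsLEA20, with 14 reads against none. The list holds some genes taken in by their symbols that are not LEA proteins, such as wsi76, named for its induction by water stress, and the RePRP genes for root proline-rich proteins. AWPM-19, for a plasma membrane protein, and EFA27, for a caleosin-like protein, are others, and both are among the 13 called.

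The most abundant of them were the dehydrins of the RAB16/RAB21 group, which lie in a row on chromosome 11 (IRGSP-1.0, 15320288 to 15343671, 23.4 kb, 4 of its 5 genes measured). Rab16A (Os11g0454300, chromosome 11, 15342877 to 15343671) had 10909 reads in N+W- against 1631 in N+W+, which is 1070 against 167 CPM, or 2200 against 305 TPM, a unit that also corrects for transcript length. It was 6.38-fold higher in N+W-, with a log2 ratio of 2.67 (2.60 to 2.75). RAB21_2 (Os11g0454000) had 747 CPM in N+W- and 110 in N+W+, a 6.77-fold difference. RAB21_1 (Os11g0453900) had the highest level of the group, 2540 TPM in N+W- against 634 in N+W+, but its log2 ratio of 1.82 (1.77 to 1.87) lay below the threshold. RAB16B (Os11g0454200) had 111 CPM in N+W- against 38.0 in N+W+, a log2 ratio of 1.55 (1.38 to 1.72). All 4 neighbours were thus higher, by 2.92-fold to 6.77-fold, and 96.6% or more of the reads of each mapped uniquely.

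Further called members covered a wide range of levels. OsLEA4 (Os08g0327700) had 316 reads in N+W- and 27 in N+W+, a log2 ratio of 3.46 (2.91 to 4.11), and OsLEA2 (Os06g0110200) had 68 and 5 reads. OsLEA25, also on chromosome 11 (15223376 to 15224746), had 1768 and 260 reads, and OsLEA33 had 288 and 44. AWPM-19 (Os05g0381400), which encodes a small plasma membrane protein that is induced by ABA, had 2746 reads in N+W- against 526 in N+W+. EFA27, which encodes a caleosin-like calcium binding protein, had 59 and 8 reads. Lea14A (Os01g0225600) had 2872 and 420 reads, but only 3 and 0 of them mapped uniquely, so its count cannot be separated from that of a near-identical sequence.

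Other members stood below the threshold or did not differ. OsLEA3-1 (Os05g0542500), a group 3 LEA gene long used as a marker of drought in rice, had 514 CPM in N+W- and 217 in N+W+, a log2 ratio of 1.24 (1.17 to 1.32). OsLEA16 had 141 and 52.6 CPM. OsLEA7, OsLEA14 and OsRePRP1.1 had log2 ratios between -0.02 and 0.07. Some members went the other way, among them OsLEA9, with 108 CPM in N+W- against 210 in N+W+. OsLEA22 had a log2 ratio of -1.25 (-0.44 from total gene reads), OsLEA10 one of -0.71 and OsLEA15 one of -0.46.

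Iron acquisition genes were lower in N+W-. Of 30 genes on the list, 22 were measured, none was called higher, and 4 were called lower (background 1.32%), namely OsNAS1, NAS2, OsNAAT1 and OsDMAS1. These 4 encode the enzymes that lead in sequence from S-adenosylmethionine to deoxymugineic acid: nicotianamine synthase, nicotianamine aminotransferase and deoxymugineic acid synthase. OsNAS1 (Os03g0307300, chromosome 3, 10929507 to 10930895) had 7496 reads in N+W- against 92311 in N+W+, or 772 against 8800 TPM, second of all genes when ranked by the TPM of the higher library. It was 12.9-fold lower in N+W-, with a log2 ratio of -3.69 (-3.72 to -3.66). NAS2 (Os03g0307200), its neighbour within a span of 4.4 kb, had 582 CPM in N+W- and 4760 in N+W+, 8.19-fold lower. These near-identical copies had 40.3% and 34.5% unique reads, and from unique reads alone their log2 ratios were -3.74 and -3.11.

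OsNAAT1 (Os02g0306401) had 257 CPM in N+W- against 1240 in N+W+, 4.82-fold lower, and all its reads were unique. OsDMAS1 (Os03g0237100) had 66.5 and 334 CPM, 5.02-fold lower. YSL15, which imports the iron complex of deoxymugineic acid, had 297 CPM in N+W- and 1020 in N+W+, a log2 ratio of -1.78 (-1.84 to -1.72) that stood just short of the threshold. OsTOM1, which exports deoxymugineic acid, had 29 and 88 reads. The genes around this chain moved less. OsIRO2, a bHLH factor that activates it, had 613 CPM in N+W- and 885 in N+W+, and OsIRO3, a repressor, had 6.86 and 5.85 CPM. OsNAS3, whose product makes nicotianamine mainly for transport within the plant, had 500 CPM in N+W- against 484 in N+W+, and the ferrous iron transporter gene OsIRT2 had 141 against 95.1 CPM. The median log2 ratio of the 22 genes was -0.54, the lowest of the 54 lists in this pair. In IR64 roots at N+ the median of the iron list was -0.55.

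**Figure D2:**
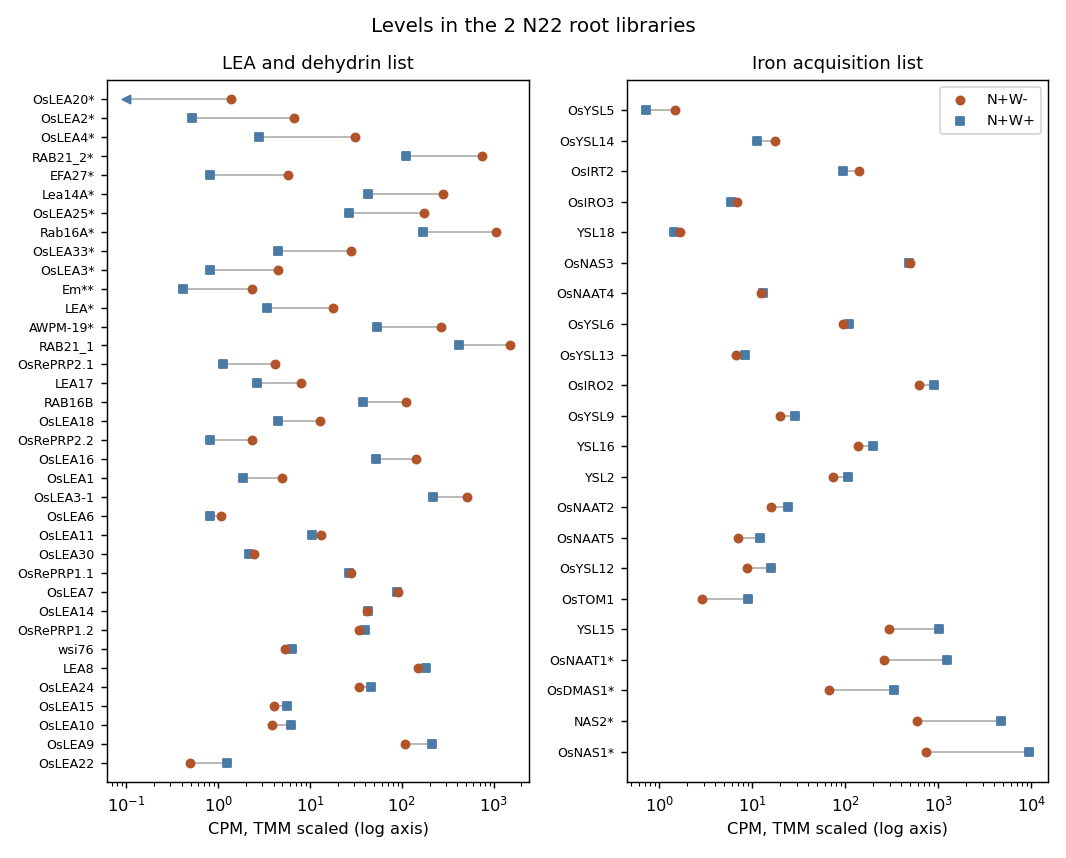
Level of each measured gene of the LEA and dehydrin list (left) and the iron acquisition list (right) in N+W- (circles) and N+W+ (squares), in TMM-scaled CPM on a log axis, ordered by log2 ratio; a final asterisk marks a called gene and the arrow marks 0 reads. The circles of the 13 called LEA list genes lie to the right of the squares, and those of OsNAAT1, OsDMAS1, NAS2 and OsNAS1 lie far to the left of theirs.

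Across the 8 root libraries the summed levels placed these 2 differences in context. The LEA and dehydrin list summed to 5432 CPM in N+W- against 1819 in N+W+ of N22, and to 1680 against 1617 CPM in the IR64 pair at N+. At low nitrogen it summed to 596.4 CPM under low water against 1349 under ample water in N22, and to 796.5 against 1671 in IR64. The N22 N+W- library thus held the highest sum of the 8, and at low nitrogen the low water libraries were the lower ones. Rab16A alone had 2.28 CPM in N-W- against 198 in N-W+ of N22, 99.5 against 37.7 in IR64 at N+, and 6.05 against 76.7 in IR64 at N-.

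The iron list summed to 3597 CPM in N+W- against 18840 in N+W+ of N22. It summed to 5451 against 12790 CPM in IR64 at N+, to 7900 against 9788 in N22 at N-, and to 4151 against 4673 in IR64 at N-. The low water library was lower in each of the 4 pairs, and the sum of the N22 N+W+ library was the highest of the 8. OsNAS1 and NAS2 made up most of that highest sum, so it speaks mainly for these neighbours and not for the list as a whole. OsNAS1 had 2680 CPM in N+W- against 7090 in N+W+ of IR64, 3320 against 2730 in N22 at N-, and 1610 against 1700 in IR64 at N-.

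**Figure D3:**
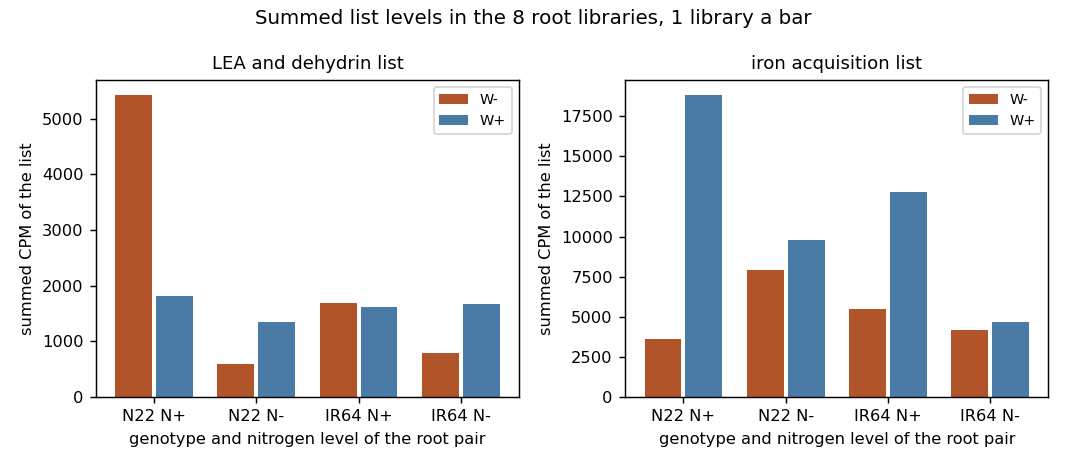
Summed CPM of the LEA and dehydrin list (left) and the iron acquisition list (right) in each of the 8 root libraries (y axis, from 0), with low water (W-) left of ample water (W+) in each pair and 1 library a bar, so without error bars. The N22 N+W- bar of 5432 CPM is the highest on the left, and the N22 N+W+ bar of 18840 CPM is the highest on the right.

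None of 89 measured genes of ABA synthesis, breakdown, receptors, PP2C phosphatases and SAPK kinases was called between the 2 libraries, where 2.54% of all genes were. None of the 10 measured ABA synthesis genes was called, and their median log2 ratio was -0.32. OSNCED3, which encodes a 9-cis-epoxycarotenoid dioxygenase of the limiting step, had 5289 reads in N+W- against 9758 in N+W+, and OsNCED1_2 had 976 against 2323. OsABA8OX1, for an ABA 8'-hydroxylase that breaks ABA down, had 8329 against 5555 reads. No receptor (4 measured), PP2C phosphatase (63) or SAPK kinase (10) was called, with medians of 0.15, -0.13 and 0. The bZIP list, which includes the ABA-responsive ABF factors, had none of 66 called. Of 7 ASR genes (for ABA, stress and ripening) none was called, with OsASR5 at 2928 reads in N+W- against 5782 in N+W+. Proline and trehalose genes had none of 11 called, and OsTPP9, for a trehalose phosphate phosphatase, had 1018 against 2337 reads.

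Few aquaporin genes were measured, and 2.54% of all genes were called, so the counts of calls are not read as a result about them. The 11 plasma membrane (PIP) genes had a median log2 ratio of -0.24 and the 8 tonoplast (TIP) genes one of -0.49, with no call in either. OsPIP1_1 had 13510 reads in N+W- against 15386 in N+W+, OsPIP2_4 had 1053 against 1659, and OsTIP2_1 had 800 against 1375. Among 15 NIP and SIP genes OsNIP1_3 was called higher on 12 against 2 reads, and the silicon channel gene LSI1 had 6250 against 4128.

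Genes for carbon and nitrogen movement included several called higher. OsSWEET12, for a sugar exporter of the SWEET family, had 91 reads in N+W- against 5 in N+W+, a 15.9-fold difference (log2 ratio 3.99, 2.84 to 5.78). OsSUT1, for a sucrose transporter, had 68 against 15 reads, and the sucrose synthase gene SUS4 had 1109 against 246, a log2 ratio of 2.10 (1.90 to 2.31). SUS7 had 21 against 4 reads. These 4, all higher, were the calls among 32 measured genes of sugar carriers, sucrose synthases and invertases (background 1.22%). The median log2 ratios were -0.46 for the carriers and -0.17 for the enzymes. OsNRT1.5B (Os02g0716800), a relative of the nitrate transporter that loads the xylem, had 222 reads in N+W- against 16 in N+W+, a log2 ratio of 3.69 (3.0 to 4.56), or 2.92 from unique reads (99 against 12). OsNRT1.5A had 2222 against 1005 reads, OsPTR9 had 842 against 250 and NRT2.3 had 1284 against 659, all below the threshold. The 2 other calls among 35 nitrogen carriers (background 1.22% higher), OsNRT1.1C and OsAMT3_2, rested on 14 and 11 reads against 0. From unique reads their log2 ratios were 0 and 3.43. In nitrogen assimilation, where none of 13 genes was called, OsGS1_2 (glutamine synthetase) had 352 against 95 reads, ASN1 (asparagine synthetase) 1924 against 1011, NiR (nitrite reductase) 6919 against 4294, and OsGDH2 (glutamate dehydrogenase) 553 against 1268.

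Defence, redox and wall genes went both ways. Of 90 class III peroxidases, which oxidise phenolics in the wall, 5 were called lower and none higher, with 16 below log2 -1 (17.8%, against 5.96% of all genes) and 2 above 1 (2.22%, against 4.79%). With library totals 1 peroxidase was called lower, and with total gene reads 2. Among the 5, prx12 (Os01g0326000, chromosome 1, 12499923 to 12504209) had 188 reads in N+W- against 1640 in N+W+, 9.12-fold lower, with a log2 ratio of -3.19 (-3.42 to -2.97). PRX39 had 21 against 84 reads, prx84 16 against 69, POX8.1 3 against 13 and prx93 2 against 10. Of 58 glutathione S-transferases, 15 were below log2 -1 (25.9%, against 5.96% of all genes; 10 with library totals) and 3 above 1 (5.17%, against 4.79%). OsGSTU36 had 701 reads in N+W- against 3091 in N+W+, 4.62-fold lower, OsGSTU8 had 6 against 26, and OsGSTU10 was called higher on 53 reads against 0, none of them unique. The phenylpropanoid genes C4H1, OsC4H and OsCCR_1 had log2 ratios of -1.89, -1.67 and -1.97, just short of the threshold, and OsCCR5 was called on 1 against 12 reads.

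Pathogenesis-related OsPR4c (Os11g0592000) had 666 reads in N+W- against 62 in N+W+, 10.2-fold higher. The chitinase gene Cht9 (Os05g0399400) had 1681 against 189, 8.47-fold higher. It was the only call among the 31 measured genes of the pathogenesis-related list (background 1.22% higher). That list was matched on symbols and does not hold OsPR4c. OsXIP (Os05g0247800), for a xylanase inhibitor, had 94 reads against 1, a log2 ratio of 5.92 (3.97 to 11.81). Diterpenoid phytoalexin genes had 4 of 18 called higher and 1 lower (background 1.22% and 1.32%), all with at most 44 reads. Their median log2 ratio was -0.10, with 5 above 1 and 4 below -1, and they summed to 196.1 CPM in N+W- against 303.5 in N+W+. CYP76M5 had 23 reads in N+W- against 1 in N+W+, CYP76M8 33 against 7, OsKSL10 26 against 3 and OsCPS2 14 against 0, and Oscyp71Z5 had 9 against 44. Among 30 heat shock proteins, the small heat shock protein gene Oshsp16.9A had 1674 reads in N+W- against 219 in N+W+ (7.28-fold higher, 30.8% unique reads), while HSP70_1 had 3559 against 1118 and OsHSP82A had 3034 against 9093.

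Of 486 measured genes of 8 transcription factor families 10 were called (2.06%, against 2.54% of all genes). Of 76 WRKY genes 2 were higher, OsWRKY30 and OsWRKY96 with 11 against 2 reads each, and 2 lower, WRKY62 with 44 reads in N+W- against 245 in N+W+ (log2 ratio -2.53, -3.04 to -2.08) and OsWRKY116 with 13 against 70. Of 64 NAC genes ONAC134 was lower, with 19 against 109 reads. Of 92 AP2/ERF genes DERF8 was lower (33 against 154 reads) and ERF3_2 higher (29 against 6, none unique). Of 102 bHLH genes OsbHLH036 was lower (18 against 127), and OsbHLH034 was lower on 6 against 29 reads, of which 1 and 0 were unique. None of 35 MYB and 29 HD-Zip genes was called. HSFB2A was the only call among 22 heat shock factors, with 39 against 161 reads.

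Hormone genes outside the ABA pathway gave at most 2 calls in any list. The gibberellin 2-oxidases, which inactivate gibberellins, included OsGA2ox8 with 12 reads in N+W- against 80 in N+W+ and OsGA2ox7 with 2 against 30. Both were called lower, the only calls among 11 measured gibberellin oxidases (background 1.32% lower). The synthesis gene GA20OX1 had 1965 against 864 reads, a log2 ratio of 1.12 (1.00 to 1.24). The auxin carrier gene PIN5B_1 had 113 against 19 reads, 5.56-fold higher. Jasmonate synthesis had 2 of 22 lower (background 1.32%), Lox2:Os:1 with 18 against 113 reads and OsOPR2 with 36 against 157, of which 3 and 9 were unique. ACO1, for an ethylene-forming oxidase, had 23 reads against 0, the only call among 17 measured ethylene synthesis genes (background 1.22% higher). From unique exon reads none of 16 was called. OsCIPK10, for a calcium-regulated kinase, had 77 against 15. Of the 1706 listed genes that were measured, 63 were called (3.69%, against 2.54% of all genes). Lists without a called member included 79 cytosolic ribosomal protein genes, 10 tubulins and 10 clock genes.

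**Figure D4:**
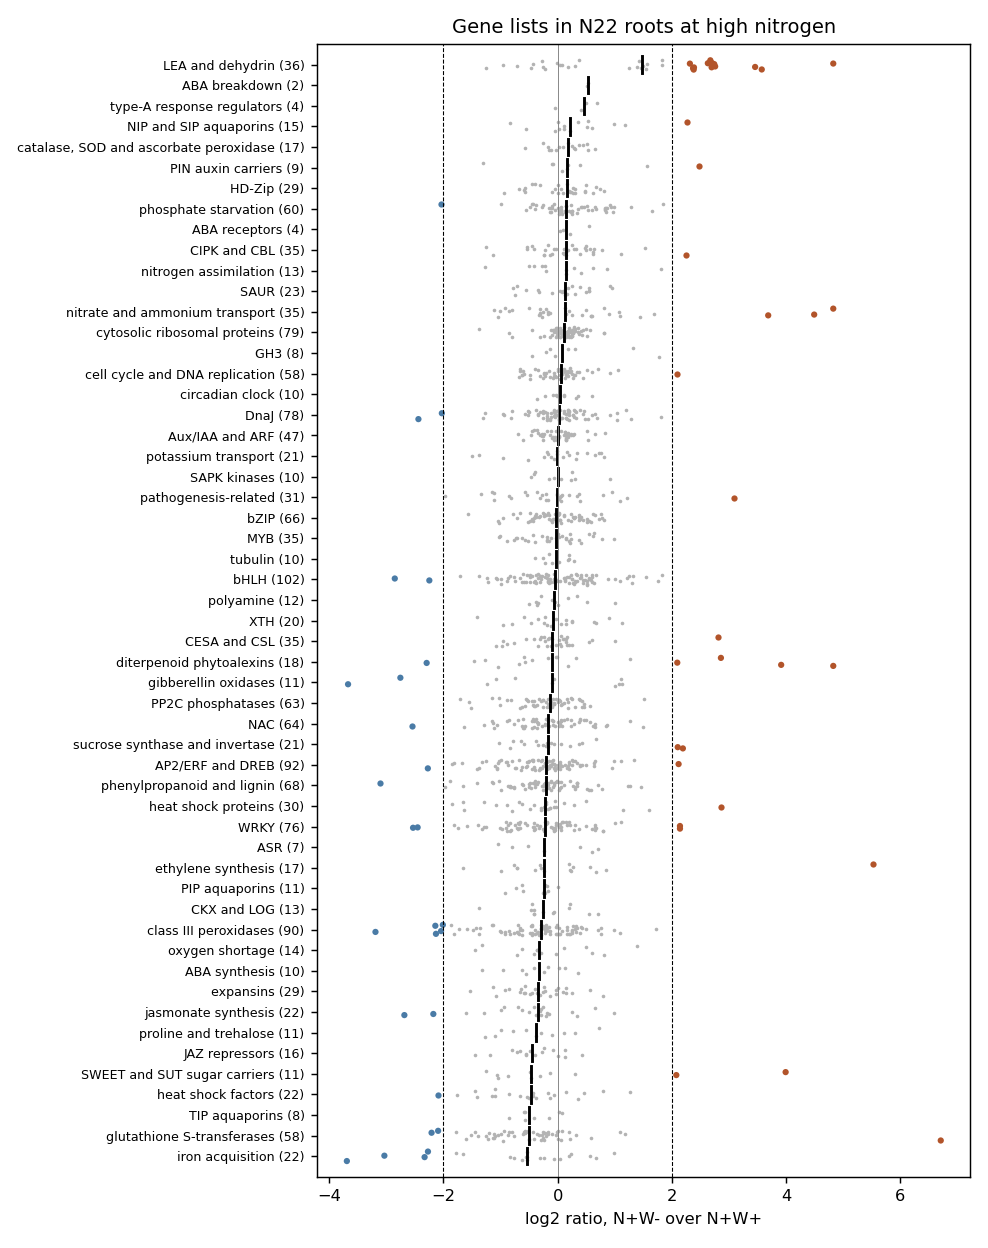
Log2 ratio of N+W- over N+W+ (x axis) of each measured gene of the 54 lists (rows, ordered by median, with the number of genes measured), where the black tick is the median of the list, the dashed lines mark -2 and 2, orange points were called higher and blue points lower. The LEA and dehydrin list at the top has a median of 1.48 and 13 orange points, and the other 53 medians lie between -0.55 and 0.55.

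The genes with the strongest differences were mostly unnamed, and many of their reads did not map to 1 place. Of the 569 called genes, 181 (31.8%) had no unique read in either library, against 6.06% of all genes compared. Among the 202 called genes with no read in 1 library this share was 58.9%, and among the 162 with the interval beyond log2 2 it was 46.3%. Os07g0542067, for example, had 139 reads in N+W- and 0 in N+W+, at least 44.2-fold higher against a floor of 3 reads, and Os02g0594166 had 0 and 94 reads, at least 32.8-fold lower, and neither had a unique read. From unique exon reads alone, 316 of 20528 genes were called (1.54%), and 42 (0.205%) with the whole interval beyond log2 2. Whether reads of repeated sequence moved between copies was not tested.

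**Figure D5:**
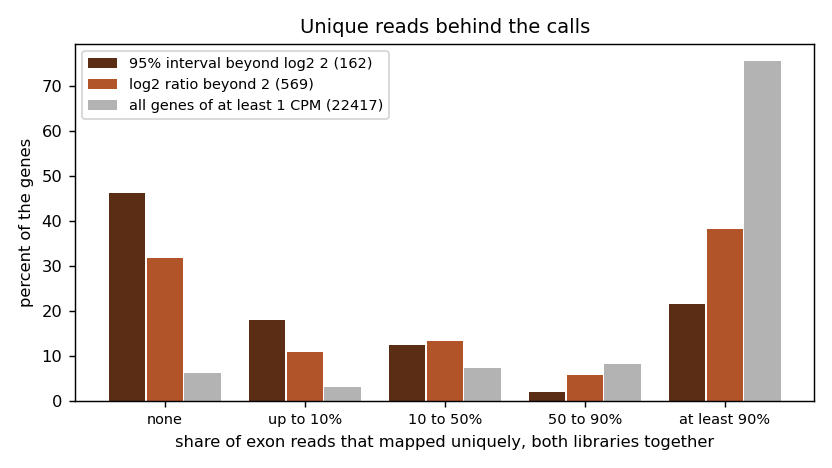
Percent of genes (y axis, from 0) in 5 classes of the share of their exon reads that mapped uniquely over both libraries (x axis), for the 162 genes with the interval beyond log2 2, the 569 called genes and all 22417 genes. Genes without a unique read make up 46.3%, 31.8% and 6.06% of the 3 sets, and genes with at least 90% unique reads 21.6%, 38.3% and 75.6%.

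With at least 90% unique reads, a limit chosen after seeing the data, 218 of 16946 genes were called (1.29%; 110 higher and 108 lower), and for 35 of them (21 higher, 14 lower) the whole interval lay beyond log2 2. The 21 were led by OsXIP, then Os07g0290500 (82 reads in N+W- against 3 in N+W+) and Os05g0140800 (307 against 13, 21.8-fold higher). OsUCL31, for a copper protein of the uclacyanin family, had 646 against 34 reads, 17.9-fold higher. Os08g0442900 had 241 against 17 reads and Os08g0153900 had 270 against 20. OsOLE4, for an oleosin, which coats oil bodies, had 41 against 3, and OsMT4, for a metallothionein, had 439 against 57. The 7 LEA list genes OsLEA2, OsLEA4, RAB21_2, OsLEA25, Rab16A, OsLEA33 and AWPM-19 were also among the 21. The 14 lower genes were led by Os04g0459200, with 0 reads in N+W- against 64 in N+W+, at least 22.4-fold lower. Only prx12, WRKY62, OsNAAT1 and OsGSTU36 of the 14 had a symbol.

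At the top of the expression range little differed apart from OsNAS1. Os01g0256500, which had the highest TPM, stood at 9370 in N+W- against 13200 in N+W+. The glycine-rich protein gene OsGRP3 had 7020 against 6340 TPM, GRP162 had 7670 against 5550, and OsERF#064 had 6650 against 4920. Among the 10 genes of highest TPM, the largest difference apart from OsNAS1 was that of Os01g0256500, with a log2 ratio of -0.67.

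The same rule was applied to the other pairs, which share no library with the N22 root pair at N+. It called 1290 of 23231 genes in IR64 roots at N+ (5.55%), 925 of 22288 in N22 roots at N- (4.15%), 1823 of 23370 in IR64 roots at N- (7.80%) and 2193 of 21756 in N22 shoots at N+ (10.1%), all above the 2.54% of N22 roots at N+. Genes called in N22 roots at N+ were then followed in these pairs, with shares taken of the genes that passed the filter there. Of the 273 genes called higher, 179 were measured in IR64 roots at N+, where 24 (13.4%) were higher and 25 (14.0%) lower, against 2.13% and 3.42% of all genes compared. In N22 roots at N-, 14 of 167 were higher (8.38%, background 2.54%) and 44 lower (26.3%, background 1.61%). In IR64 roots at N-, 40 of 191 were higher (20.9%, background 3.99%) and 34 lower (17.8%, background 3.81%). In N22 shoots at N+, 31 of 153 were higher (20.3%, background 6.67%) and 9 lower (5.88%, background 3.41%). The genes called higher exceeded the background in both directions in each of the 4 pairs. That background was not matched for reads or for the share of unique reads. Called genes differed from all genes in the latter, with 31.8% against 6.06% lacking a unique read. The excess is therefore not read as a result about these genes.

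Of the 296 genes called lower, 203 were measured in IR64 roots at N+, where 20 (9.85%) were higher and 49 (24.1%) lower. In N22 roots at N-, 38 of 173 were higher (22.0%) and 19 lower. In IR64 roots at N-, 36 of 183 were higher (19.7%) and 19 lower (10.4%), and in N22 shoots at N+, 33 of 155 were higher (21.3%) and 19 lower (12.3%). These genes exceeded the same unmatched backgrounds in both directions too, which is likewise not read as a result about them. More of them were lower than higher only in IR64 roots at N+.

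Within the LEA and dehydrin list, none of 30 measured genes was called in IR64 roots at N+ (median log2 ratio 0.25). At N- none was higher and 9 of 26 were lower in N22 roots, and none was higher and 14 of 27 lower in IR64 roots (medians -0.21 and -2.40). In N22 shoots at N+, 7 of 20 were higher and none lower (median 1.19). Within the iron list, 1 of 23 measured genes was higher and none lower in IR64 roots at N+ (median -0.55). At N- none was higher, and 1 of 22 was lower in N22 roots and 1 of 24 in IR64 roots (medians -0.32 and -0.22). In N22 shoots at N+, 1 of 19 was lower and none higher (median -0.11). Rab16A had log2 ratios of 1.40 in IR64 roots at N+, -6.41 in N22 roots at N-, -3.66 in IR64 roots at N- and 3.40 in N22 shoots. OsNAS1 had log2 ratios of -1.40, 0.28 and -0.08 in the 3 other root pairs, in the same order. OsUCL31 had -0.18, -6.87 and -4.79, Os05g0140800 had -2.89, -4.35 and -2.21, and prx12 had 0.81, 0.02 and 0.62. OsPR4c was higher under low water in each root pair, with 1.03, 4.48 and 5.02.

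The 35 genes with at least 90% unique reads were followed in the same pairs by counts. They had been picked by their ratios in N22 roots at N+, after the data were seen. Of all genes compared, 1.61% were called lower and 2.54% higher in N22 roots at N-. In IR64 roots at N- 3.81% were lower and 3.99% higher, and in N22 shoots at N+ 6.67% were higher. These backgrounds were not matched for reads, so the counts below are not read as a result about these genes. Of the 21 higher, 18 were below 0 in N22 roots at N-, where 10 were called lower and 1 higher, and 15 were below 0 in IR64 roots at N- (11 called lower, 4 higher). In IR64 roots at N+ 10 were above 0 and 11 below, and in N22 shoots at N+ 15 were above 0 and 7 were called higher. Of the 14 lower, 11 were below 0 and 3 above in IR64 roots at N+, 7 and 7 in N22 roots at N-, 6 and 8 in IR64 roots at N-, and 9 and 4 in N22 shoots at N+, where 1 was at 0.

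With edgeR's quasi-likelihood test over the 8 root libraries, it was tested whether any gene moved with water over the 4 root pairs. Whether any moved differently in the N22 pair at N+ was tested too. The pairs differ in genotype or nitrogen level and stood in for replicates, so the tests measure spread between pairs, not between plants. No gene of 22284 passed an adjusted p of 0.05 for water, although 942 lay below 0.05 before adjustment. DESeq2 called 34, of which 28 were lower under low water. The edgeR count was 1 without the IR64 root pair at N+, OsCPS2, and 0 without any other pair. The genes with the smallest edgeR p were each on 1 side in all 4 pairs but had an adjusted p of 0.999. OsFAD7, for a fatty acid desaturase, had a mean log2 change of -1.32, with 222 reads in N+W- against 429 in N+W+ of N22. OsPT19, for a phosphate transporter, had one of -1.16, with 222 against 421 reads. The expansin gene OsEXPA11 had 1.10, with 206 against 133 reads. Cht11, for a chitinase, had 2.60, on 10 against 3 reads. YSL15, not among those with the smallest p, was also lower under low water in all 4 pairs.

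For the difference between the N22 pair at N+ and the 3 other root pairs, edgeR again passed none of 22284 genes (438 lay below 0.05 before adjustment), and DESeq2 called 4: Os05g0140800 and Os08g0153900 higher, and prx12 and Os04g0583266 lower. Os04g0583266 had 11 reads in N+W- against 166 in N+W+, with none unique. The smallest edgeR p belonged to Os04g0459200, with 0 reads in N+W- against 64 in N+W+, followed by Os05g0140800, whose extra log2 change was 7.85. Of the lists, LEA and dehydrin genes had 4 of 28 fitted genes with an unadjusted p under 0.05 (OsLEA33, LEA, Lea14A and OsLEA18), iron genes 3 of 22 (OsDMAS1, OsNAS1 and NAS2) and class III peroxidases 7 of 86. All adjusted p were 1 in this edgeR test. Without the IR64 root pair at N+, edgeR called 22 genes, 15 of them with a positive extra change, among them AWPM-19, RAB21_1, OsLEA25, Lea14A, LEA and OsUCL31, and without either of the other pairs it called none. Without the IR64 root pair at N+, the pairs left for comparison were both at N-, so the extra change could not be told apart from the nitrogen level. Nothing reported above was thus shown by edgeR over all 8 root libraries to be particular to N22 roots at N+. On simulated data the test of the difference missed many changed genes, so its count of 0 does not show that the pairs moved alike.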

How the data were processed

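RNA of N22 roots was sequenced as TruSeq paired-end libraries on an Illumina HiSeq, and the authors trimmed the reads with sickle and counted them per gene in CLC Genomics Workbench on the rice genome IRGSP-1.0. The deposited tables give, for each library, counts of total and unique exon reads and of gene reads, with RPKM and TPM values that the authors computed from them; no comparison columns are included. Tests and ratios used the total exon read counts. Total exon reads include reads that match several places, and unique exon reads do not.

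Ratios were computed with numpy 2.4.6 and scipy 1.17.1 from counts scaled by TMM over the 8 root libraries, adding a prior count of 0.5. Genes under 1 CPM in both libraries were left out. A gene was called beyond a log2 ratio of 2 either way, the study's threshold. The study also set a limit on the false discovery rate and reported fewer differentially expressed genes for this comparison than were called here. That step needs replicates and was left out. The interval is a Clopper-Pearson 95% interval of the share of reads, and a library with no read was set at a floor of 3 reads for a lower bound on a fold. The 2 tests over the 8 root libraries used edgeR 4.0.16 (robust quasi-likelihood, Benjamini-Hochberg at 0.05) with the 4 pairs and water (3 residual degrees of freedom), and with an extra water term for the N22 pair at N+ (2 residual degrees of freedom), where that pair is assumed to vary like the others. DESeq2 1.42.0 was an alternative. The tests and ratios were tested on simulated data. At a simulated dispersion (spread between libraries) of 0.1, the test of the difference recovered 0 of 200 genes changed by log2 2. It recovered 74 of 200 changed by log2 3. At a dispersion of 0.02 it recovered 152 and 192 of 200. The test of water recovered at least 193 of the changed genes in each setting. In that simulation each changed gene had the same water change in all 4 pairs. In the data genes such as Rab16A went up in some root pairs and down in others. That recovery therefore cannot be carried over to the count of 0 for water.

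Genes were named by rule: the 12 each way whose interval lay farthest beyond log2 2, up to 4 members of each list by the same measure and any called member of a small count, the 10 highest by TPM, and up to 6 each way with the smallest p in each test. All measured members of the LEA and iron lists were tabulated, and genes with at least 90% unique reads were named after their values were seen. The 54 lists were matched on symbols. The pair, the lists and the members were chosen with earlier results of these data known. A planned count of promoter words was not run, since promoter sequences were not used here.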

Additional observations from a re-analysis of the deposited data

How the results depend on the processing

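The number of called genes depended on the processing. It was 569 (273 higher, 296 lower) as reported, 150 (65 higher, 85 lower) with at least 5 CPM, 2311 (1197 and 1114) with no filter, 316 (164 and 152) from unique exon reads and 38 (27 and 11) from deposited RPKM with a pseudocount of 1. Among genes with at least 90% unique reads, a limit added after seeing the data, it was 218 (110 and 108). Calls with the interval beyond log2 2 numbered 162 as reported, 80 (40 higher, 40 lower) with at least 5 CPM, 42 (23 and 19) from unique exon reads and 35 (21 and 14) with at least 90% unique reads. By construction, more genes enter with no filter and fewer genes or reads with the limits on CPM and on unique reads, while the cause of the drop with RPKM was not tested. Library totals gave 570 calls, TMM from the 2 libraries alone 569, DESeq2 size factors 571, total gene reads 552 and a prior count of 2 gave 433. The 13 higher LEA list calls were 12 from unique reads and 13 with library totals and total gene reads, and the 4 lower iron calls were 4 in each of these. OsbHLH034 had a log2 ratio of 1.56 from unique exon reads, of which it had 1. DESeq2 called 34 genes for water and 4 for the difference, where edgeR called 0, and leaving out a pair gave 0 to 1 and 0 to 22; the cause was not tested. No paired analysis was possible because each group holds 1 library and the labels give no replicate numbers; the genotype-by-nitrogen pairs, which are no replicates, were a term in both edgeR tests.

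With 1 pooled library a group, plant-to-plant spread is unknown, and a ratio near the threshold is uncertain by more than its counting interval. Genes under about 23 reads, and genes without unique reads, are the least certain.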
